A study of Mus musculus with 84 samples.

Results

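Day 10 of reprogramming with the control vector was compared with established embryonic stem cells (ESCs), to describe what still separated cells with active Yamanaka factors from the pluripotent state. The comparison used the 15 wells labelled as ESCs or as control day 10 out of 84 in the series. Technical wells of 1 biological replicate were summed, which left 6 of 30 libraries, 3 in each group. Gene expression was measured with STRT RNA-seq, which tags and reads the 5′ ends of transcripts, and the deposited values were raw read counts for 18909 genes. The ESCs were TNG MKOS cells of 129 background, grown in ESC medium with LIF and without doxycycline. This is a single targeted line with a GFP reporter in 1 allele of Nanog, which disrupts that allele, and with the MKOS cassette, in which doxycycline switches on Oct4, Sox2, Klf4 and c-Myc (the Yamanaka factors) together with mOrange, and which is silent without the drug. The day 10 cells were embryonic fibroblasts (MEFs) derived from that line through chimeric embryos and mixed with wild-type MEFs. They were infected with a retrovirus for a blue fluorescent protein, reprogrammed for 10 days in ESC medium to which doxycycline (300 ng/ml) and vitamin C were added, and sorted for mOrange, so that cells still expressing the cassette were sampled whatever their fate. Wild-type 129 MEFs, grown in medium with FGF2 and heparin and without LIF, serve below as the starting level. A further day 10 group, given for its levels only, was treated like the control but infected to overexpress a constitutively active Smad3 (+Sm3CA). ESCs and MEFs were taken from growing cultures without a sort. By their well codes, ESC samples came from rows A to C, with 3 wells per library. Control day 10 samples came from rows G and H, with 2 wells per library. The main groups thus differed in doxycycline, vitamin C, vector, sorting and well rows as well as in cell state, and these cannot be told apart.

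Reprogramming replaces the programme of a fibroblast in steps. Matrix and contractile genes are lowered and epithelial genes raised early, whereas the self-sustaining network of Nanog, Esrrb and their partners, and the chromatin state that goes with it, are acquired late. Mouse ESCs proliferate fast, express germline genes at a low level and show a weak interferon response and little MHC class I. Because each library is a population, fewer cells that express a gene and less RNA per cell cannot be told apart in any result below.

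Libraries held 1104551 to 2045460 reads in ESCs and 1139335 to 1434427 reads on control day 10. Genes with at most 3 reads per library throughout a group are called undetected there, which at this depth corresponds to a mean of 4.01 normalized counts in ESCs and 3.37 on day 10. ESC replicate 2 stood apart from the other ESC libraries. Its correlations with them, over log2(normalized count + 1) of all genes tested, were 0.884 and 0.8693, against 0.9508 between replicates 1 and 3, while day 10 libraries correlated at 0.9378 to 0.9547 and libraries of different groups at 0.4843 to 0.6086. Gapdh took 0.0186% of the reads of ESC replicate 2 and 0.76% and 0.697% in the others. Nanog (21.7 normalized counts against 299 and 285) and Zfp57 (12.6 against 164 and 193) were also far lower in it, and counts that moved by over 1.5 times without it are given both ways. The labels were checked against marker genes. The 8 ESC markers summed to 28535 to 54705 normalized counts in ESC libraries and to 480 to 1057 on day 10. In ESCs most of this sum came from Dppa5a. None of the 8 was undetected in ESCs or on day 10, and 7 were undetected in MEFs. Of the 11 fibroblast markers 10 were undetected in ESCs.

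Of the 8266 genes tested with edgeR's quasi-likelihood test, 1528 (18.5%) were higher and 1957 (23.7%) were lower in ESCs at an adjusted p under 0.05. With the added requirement of a change over 4-fold, 456 (5.52%) were higher and 1071 (13.0%) lower. These last 2 counts were 696 and 1704 by DESeq2's Wald test and 836 and 1925 without the filter on low counts. Without ESC replicate 2 the 4 counts by edgeR were 2183, 2633, 534 and 1461. At the other extreme, 1105 genes (13.4%) had a 95% interval that lay wholly within 2-fold, and thus had a level on day 10 that the data place close to that of ESCs. That number depended on single libraries, and went to 1698 without ESC replicate 2 and to 472 without day 10 replicate 3. The median log2 fold change over all genes tested was −0.04. All fold changes are ESC minus control day 10, so positive values stand for genes lower on day 10 than in ESCs. The 3 libraries of one group lay entirely above or below those of the other for 54.9% of the genes tested, which is the background for each statement below that groups did not overlap. Likewise, 18.5% higher and 23.7% lower are the background for each count of list members called below.

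The 4 factors of the cassette were read first, since the day 10 cells were induced to express them. The counts do not separate cassette transcripts from those of the endogenous genes. The cassette carries the factors on a shared transcript and the method reads 5′ ends, so its RNA may be missed for some factors. Summed levels of the 4 genes were 91.6 to 120 normalized counts in MEFs and 83 to 93.5 on control day 3. The values below are thus no measure of total factor RNA, and the part of the cassette in them was not tested. Pou5f1, which encodes Oct4, had 80.2, 104 and 118 normalized counts in the day 10 libraries and 195, 287 and 341 in the ESC libraries, with none in MEFs. All ESC libraries were above all day 10 libraries, and the log2 fold change was 1.39 (standard error 0.29, adjusted p = 0.00267). Sox2 showed a wider gap, with 19.8, 17.9 and 27.3 normalized counts on day 10 against 227, 997 and 271 in ESCs (log2 fold change 4.43, adjusted p = 9.14e-05). Klf4 rose from 8.64, 11.9 and 13.2 to 54.8, 134 and 63 (log2 fold change 2.79, adjusted p = 0.000355). Myc was lower on day 10, at 17.3, 23.9 and 21.7, than in ESCs, at 48.4, 47 and 55.3, and lower than in MEFs, where its mean was 79 ± 11.6 (SD, n = 3). For Myc the log2 fold change was 1.21 (adjusted p = 0.0141), and over the alternative fits its adjusted p ranged from 0.00162 to 0.06.

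Transcription factors of the naive network were lower on day 10 almost throughout. Of 23 listed genes 21 were tested, and 18 were higher and 0 lower in ESCs, with a median log2 fold change of 3.57 (3.29 with genes undetected on day 10 set to their bound). A member that is expressed in 1 group alone passes the filter on low counts through that group, so such counts, here and in the other lists, describe the members tested and are no evidence of direction by themselves. Esrrb, a nuclear receptor that sustains naive self-renewal, had 13.6, 11.9 and 8.48 normalized counts on day 10 and 174, 347 and 238 in ESCs (log2 fold change 4.42, adjusted p = 4.53e-06). Zfp42 (Rex1), a zinc finger protein used as a marker of naive cells, had been induced to 116, 75.3 and 160 on day 10 and reached 2275, 3654 and 2506 in ESCs (log2 fold change 4.53, adjusted p = 3.88e-06). Its mean went from 1.59 in MEFs to 20.3 by day 8 and 117 by day 10, so most of the level seen on day 10 appeared after day 8.

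Several naive factors had no or few reads on day 10. Klf2, a Kruppel-like factor that can replace Klf4 in reprogramming, had 0, 0 and 1.88 normalized counts on day 10, with a mean of 7.04 in MEFs, and 109, 363 and 141 in ESCs, which is at least 60.6-fold higher. Utf1 was undetected on day 10 and at least 25.9-fold higher in ESCs. Prdm14, a repressor of DNA methylation and of FGF signalling, and Nr5a2, an orphan nuclear receptor, were at least 7.58-fold and 8.27-fold higher. Nr0b1 (Dax1) had 0, 0 and 3.77 normalized counts on day 10 and 77.6, 199 and 84.9 in ESCs. By contrast Sall4, Tfcp2l1 and Zscan10 were present on day 10, with means of 21.3 ± 1.92, 27.2 ± 14.1 and 12.4 ± 1.74 (SD, n = 3), and were 2.87, 3.29 and 3.27 log2 units higher in ESCs. The members without a call were Stat3, the effector of LIF signalling, which had 54.3, 84.8 and 65 on day 10 and 37.5, 19.9 and 50.1 in ESCs (adjusted p = 0.0595), Rarg (adjusted p = 0.339) and Zfp57 (adjusted p = 0.064, and 8.66e-07 without ESC replicate 2). Without ESC replicate 2, 19 of 21 were higher.

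Nanog, the homeodomain factor whose reporter marks completed reprogramming in this line, is described for that role although it was not among the genes chosen by rule. It had 22.2, 10.8 and 17 normalized counts on day 10 and 299, 21.7 and 285 in ESCs, so that ESC replicate 2 lay within the day 10 range. Its log2 fold change was 3.57 (adjusted p = 0.00203), and 4.14 without that library (adjusted p = 1.36e-10). Before day 10 it was at 0 on day 3, 0.319 on day 6 and 0.775 on day 8, far below the 3 day 10 libraries. The proximal promoter of Nanog is shown because it holds a composite element for Oct4 and Sox2. It covers the 250 bases before the start site in RefSeq, chr6:122707239-122707488 of GRCm38.p6 on the plus strand, and the capitals mark the octamer core ATGCAAA, found on the reverse strand as TTTGCAT.
Nanog: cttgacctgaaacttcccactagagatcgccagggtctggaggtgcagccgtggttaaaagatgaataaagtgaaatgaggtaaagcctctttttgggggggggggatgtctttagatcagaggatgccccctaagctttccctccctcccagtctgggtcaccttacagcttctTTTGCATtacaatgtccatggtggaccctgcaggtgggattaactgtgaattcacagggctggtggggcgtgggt
This core was searched on both strands of the 250 upstream bases of every promoter in the table. It was present in 4.12% of 32851 promoters, in 11.1% of the 27 promoters of naive factors and in 17.5% of the 40 promoters of stratified epithelial genes, which are described below. A match is a description of the sequence and not a bound site.

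Other ESC-specific genes differed by more in normalized counts. Of 35 listed genes 31 were tested, with 28 higher, 1 lower and 2 not called, and a median log2 fold change of 3.88. Dppa5a, an RNA-binding protein of early embryos, was the most abundant gene of the list in ESCs. It had 362, 202 and 580 normalized counts on day 10 and 26857, 48415 and 23195 in ESCs (log2 fold change 6.37, standard error 0.52, adjusted p = 3.69e-06). Its mean was 7.42 in MEFs and 15.3 on day 8, so most of its day 10 level also appeared after day 8. Upp1, a uridine phosphorylase, had 11.1, 17.9 and 26.4 on day 10, not far from the 11 of MEFs, and 1570, 464 and 1471 in ESCs. Ooep, a maternal protein of the oocyte and early embryo, had 6.17, 0 and 3.77 on day 10 and 413, 654 and 350 in ESCs (log2 fold change 7.04, adjusted p = 2.9e-06). Dppa2 and Dppa4, chromatin proteins encoded side by side, were 5.04 and 5.95 log2 units higher in ESCs. Their levels in replicates 1 to 3 on day 10 were 14.8, 2.39 and 21.7 for Dppa2 and 9.88, 3.58 and 15.1 for Dppa4, with replicate 2 lowest for both.

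Tdh, the threonine dehydrogenase on which mouse ESCs depend, had been raised from 0 in MEFs to 309 by day 3, and was at 159, 127 and 217 on day 10 and 1057, 583 and 1146 in ESCs. L1td1, with a mean of 67.7 on day 6, had 76.5, 115 and 78.2 on day 10 against 480, 488 and 368 (log2 fold change 2.26, adjusted p = 7.72e-05). Lin28b, which blocks maturation of let-7 miRNAs, was not called (log2 fold change 0.29, 95% interval −1.34 to 1.92), with 51.4 normalized counts in ESC replicate 3 and at most 6.39 in the other ESC libraries, whereas its paralogue Lin28a was 1.82 log2 units higher in ESCs. Cd9, a tetraspanin often used as a surface marker of pluripotent cells, went the opposite way, with 2301, 2079 and 1928 normalized counts on day 10 and 839, 305 and 827 in ESCs (log2 fold change −1.72, adjusted p = 0.003). The genes of the list took 0.25% ± 0.0207 (SD, n = 3) of all reads on day 10 and 2.35% ± 0.461 in ESCs (p = 0.1 in a two-sided exact permutation test, which cannot give less with 3 libraries a side). In MEFs their share was 0.0291%. Single genes dominated these shares. The list summed to 3140 to 3675 normalized counts on day 10, mostly from Cd9. In ESCs it summed to 35286 to 57541, mostly from Dppa5a. The shares are thus no measure of how far the list as a whole had moved.

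**Figure D1:**
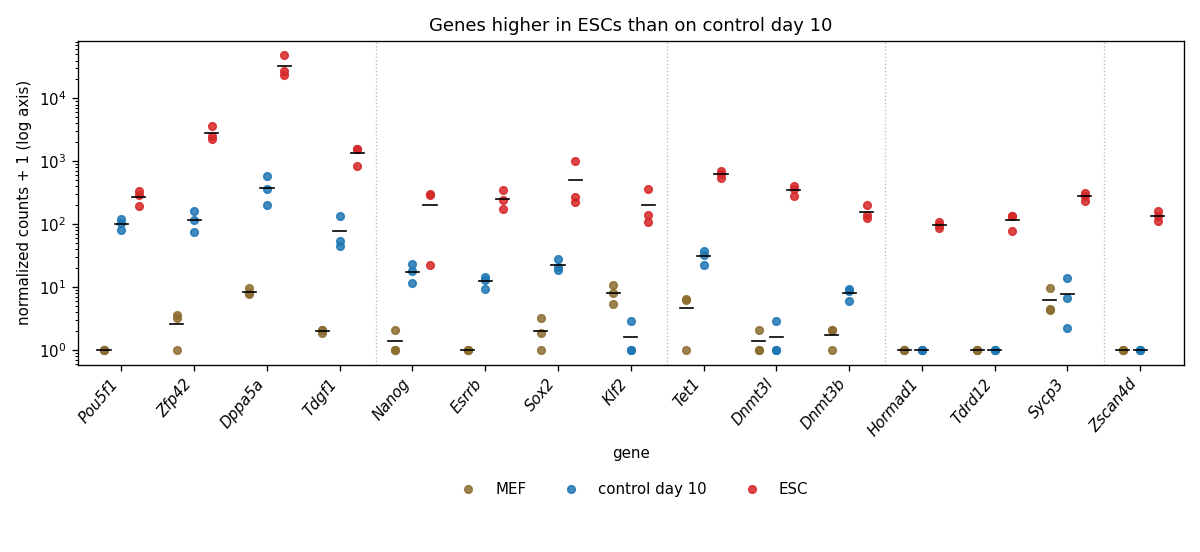
Normalized counts plus 1 (log axis) of 15 genes in single libraries of MEFs, control day 10 and ESCs, with black bars at group means and dotted lines between groups of genes. Pou5f1, Zfp42, Dppa5a and Tdgf1 had risen on day 10 without reaching ESC levels, while Klf2, Dnmt3l, Hormad1, Tdrd12 and Zscan4d were at or near 0 on day 10, and Nanog in ESC replicate 2 lay at the day 10 level.

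Of 10 enzymes and readers of DNA methylation tested, 7 were higher in ESCs, 1 was lower and 2 were not called (7 higher and 2 lower of 12 without ESC replicate 2). Dnmt3l, a catalytically inactive cofactor of de novo methylation, had 0, 0 and 1.88 normalized counts on day 10 and 279, 406 and 356 in ESCs, at least 103-fold more. Dnmt3b, a de novo methyltransferase, rose from 4.94, 8.36 and 7.54 to 126, 204 and 138 (log2 fold change 4.39, adjusted p = 5.06e-06), but Dnmt3a was not called (log2 fold change 0.27, 95% interval −0.47 to 1.01). The maintenance enzyme Dnmt1 was 1.48 log2 units higher in ESCs and its partner Uhrf1 2.36. Among the dioxygenases that oxidise methylcytosine, Tet1 had 37, 21.5 and 31.1 on day 10 and 549, 708 and 633 in ESCs (log2 fold change 4.34, adjusted p = 1.51e-06), while Tet2 was not called (log2 fold change 0.45, 95% interval −0.46 to 1.37). Mbd2, which binds methylated DNA, was the 1 member lower in ESCs, at 53.1, 38.2 and 37.7 on day 10 against 4.57, 7.23 and 3.86.

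Polycomb subunits, which deposit and read repressive histone marks, were mostly higher in ESCs, with 12 higher, 2 lower and 4 not called of 18 tested and a median log2 fold change of 1.40. Of the core of PRC2, Ezh2, Suz12 and Eed were 1.28, 1.77 and 1.75 log2 units higher in ESCs, while Ezh1 was not called (log2 fold change −0.08). The accessory proteins Jarid2 and Mtf2, which guide PRC2 in ESCs, had larger differences of 3.14 and 2.87. Cbx7 had 2.47, 2.39 and 3.77 normalized counts on day 10 and 108, 114 and 54 in ESCs, and Phc1 was 3.66 log2 units higher in ESCs. The PRC1 subunits Bmi1 and Phc2 were lower in ESCs (log2 fold changes −1.73 and −1.83).

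Of 44 germline genes in the counts 32 were undetected on day 10, and 13 in ESCs. In all, 11 passed the filter on low counts, 10 of them higher and 0 lower in ESCs. In ESCs 14.5 to 21.9 normalized counts of Dazl were found, against 0 in all day 10 libraries, and this gene did not pass the filter. Hormad1, a protein of meiotic chromosome axes, had no read in any MEF or day 10 library and 86.8, 95.7 and 108 normalized counts in ESCs, which is at least 28.7-fold higher. Tdrd12, of the piRNA pathway, likewise had none on day 10 and 136, 77.7 and 136 in ESCs, at least 34.6-fold more. Stk31 was at least 7.28-fold higher. Sycp3, an axis protein of meiotic chromosomes, had 1.23, 13.1 and 5.65 on day 10 against 284, 316 and 229 (log2 fold change 5.29, adjusted p = 7.34e-06). Rhox6, of the X-linked homeobox cluster, had been induced to 14.8, 16.7 and 10.4 from 0 in MEFs and was 47.5, 16.3 and 45 in ESCs (adjusted p = 0.0349). Piwil2 was the 1 gene tested without a call, at 12.3, 15.5 and 21.7 on day 10 and 5.48, 10.8 and 6.43 in ESCs (log2 fold change −1.24, adjusted p = 0.0689).

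The promoters of germline genes are known to be rich in CpG and to hold E-boxes. The motif CACGTG, a palindrome that reads the same on both strands, was found in the 250 upstream bases of 36.4% of 44 germline promoters, belonging to 13 of 37 genes, and in 6.02% of all promoters. The median number of CpG was 14 in the germline promoters and 6 over all. The share with this motif was 3.7% in naive factors, 6.67% in ESC-specific genes and 7.5% in stratified epithelial genes. Of the genes with the clearest difference, 3 are shown to set the promoters with and without the motif side by side, with CACGTG in capitals. They are Hormad1 (chr3:95559427-95559676, plus strand, 19 CpG and 2 matches), Sycp3 (chr10:88459337-88459586, plus strand, 12 CpG and 2 matches) and Tdrd12 (chr7:35537745-35537994, minus strand, 5 CpG and 0 matches), all from RefSeq on GRCm38.p6.
Hormad1: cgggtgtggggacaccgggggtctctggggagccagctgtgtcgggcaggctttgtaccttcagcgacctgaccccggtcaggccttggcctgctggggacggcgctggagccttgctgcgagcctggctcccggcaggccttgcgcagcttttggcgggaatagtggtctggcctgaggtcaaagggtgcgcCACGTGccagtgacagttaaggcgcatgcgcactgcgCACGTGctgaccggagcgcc
Sycp3: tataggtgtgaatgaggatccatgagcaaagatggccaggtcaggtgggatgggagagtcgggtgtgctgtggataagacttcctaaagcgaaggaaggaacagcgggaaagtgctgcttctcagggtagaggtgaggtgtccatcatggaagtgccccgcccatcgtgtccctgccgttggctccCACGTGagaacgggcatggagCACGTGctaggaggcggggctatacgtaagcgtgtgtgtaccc
Tdrd12: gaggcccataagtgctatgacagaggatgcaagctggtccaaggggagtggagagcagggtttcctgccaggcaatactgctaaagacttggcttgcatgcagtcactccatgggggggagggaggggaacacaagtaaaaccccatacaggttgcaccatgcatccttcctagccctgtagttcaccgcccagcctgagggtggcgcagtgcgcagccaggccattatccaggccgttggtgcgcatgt
Tdrd12, without a match, and Hormad1, with 2, both had no read on day 10. DNA methylation was not measured.

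Genes of the 2-cell-like state, a rare and transient state in ESC cultures, were undetected on day 10 in 12 of 14 cases and in ESCs in 2. Zscan4d had 111, 135 and 159 normalized counts in ESCs and no read in MEFs, on control day 10 or in +Sm3CA day 10 cells, a bound of at least 40.1-fold. Zscan4f had 83.1, 37.9 and 41.1, at least 16-fold more than on day 10. Because the members of the Zscan4 cluster are near-identical copies, the split of reads between them is uncertain. Eif1a, also on the list, was within 2-fold (log2 fold change 0.11, 95% interval −0.5 to 0.71), and it is expressed in MEFs at 598 normalized counts.

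In the Nodal pathway 6 of 12 genes tested were higher and 2 lower in ESCs. The coreceptor Tdgf1 (Cripto) had 44.4, 53.8 and 132 normalized counts on day 10 and 1577, 829 and 1591 in ESCs, and Nodal itself 0, 1.19 and 4.71 against 59.4, 43.4 and 70.7. The inhibitor Lefty2 was already at 64.2, 63.3 and 69.7 on day 10, from 0.288 in MEFs, and was 1.02 log2 units higher in ESCs (adjusted p = 0.0118). The transducers Smad2, Smad3 and Smad4 were not called. Pcsk6, a protease that processes Nodal-related ligands, was lower in ESCs, at 15.5, 14.5 and 20.6 against 67.9, 62.1 and 63.1 on day 10. In the FGF pathway the ligand Fgf4 had 6.17, 4.78 and 14.1 on day 10 and 132, 154 and 108 in ESCs, and its target Etv5 30.9, 26.3 and 48.1 against 342, 332 and 378. The feedback inhibitors Spry2, Spry4, Dusp6 and Spred1 were all higher, by 1.19 to 3.56 log2 units. Fgf7, a fibroblast growth factor for epithelia, was undetected in ESCs and at least 12.5-fold higher on day 10, and Egr1, an immediate target of ERK, was lower in ESCs (log2 fold change −2.32).

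The LIF pathway divided evenly, with 4 genes higher, 4 lower and 4 not called of 12 tested. The receptor Lifr had 9.88, 8.36 and 10.4 normalized counts on day 10 and 55.7, 57.8 and 54 in ESCs (log2 fold change 2.48, adjusted p = 0.000245). Targets of the pathway were divided. Pim3, Socs2 and Pim1 were 2.44, 2.26 and 1.86 log2 units higher in ESCs. Cish was lower (log2 fold change −2.79), and Socs3 and Bcl3 were not called (−0.75 and 0.67). The kinases Jak1 and Jak2 were lower in ESCs (log2 fold changes −2.26 and −2.9). In the BMP pathway 0 genes were higher and 5 of 9 lower, or 8 of 11 lower without ESC replicate 2. Id1, a target of BMP signalling, had 123, 104 and 141 on day 10 and 47.5, 41.5 and 56.6 in ESCs, and the receptors Acvr1 and Bmpr2 were lower. Id2 was within 2-fold (log2 fold change −0.1, 95% interval −0.91 to 0.71).

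Genes of S phase and mitosis were higher in ESCs by smaller amounts. Of 31 replication genes all were tested, 24 were higher and 0 lower in ESCs, and the median log2 fold change was 1.54. Of 30 mitotic genes 22 were higher and 0 lower, with a median of 1.30. Without ESC replicate 2 the counts were 29 of 31 and 28 of 30. Mcm3, of the replicative helicase, had 40.7, 28.7 and 66.9 normalized counts on day 10 and 260, 222 and 291 in ESCs (log2 fold change 2.44, adjusted p = 0.00014). Top2a, the topoisomerase of dividing cells, had 183, 159 and 167 against 826, 928 and 934 (log2 fold change 2.35, adjusted p = 2.49e-05). Members without a call included Rrm2 (log2 fold change 0.62, adjusted p = 0.0829) and Cdk1 (0.51, adjusted p = 0.209). The 31 replication genes took 0.183% ± 0.0175 of reads on day 10 and 0.365% ± 0.0885 in ESCs, with no overlap between the groups. MEFs were lower still at 0.113%.

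Of 21 cell cycle regulators tested 3 were higher, 7 lower and 11 not called. Over all genes tested, 18.5% were higher and 23.7% lower. Cdkn1a, which encodes the CDK inhibitor p21, had 1165, 1314 and 1364 normalized counts on day 10 and 58.5, 32.5 and 52.7 in ESCs (log2 fold change −4.76, adjusted p = 1.17e-06). Its means before were 954 in MEFs and 861 on day 3. Ccnd2 was at 341, 416 and 384 on day 10 against 12.8, 12.6 and 6.43 in ESCs (log2 fold change −5.19), after 1276 in MEFs. Ccne1, the cyclin that drives entry into S phase, was higher in ESCs at 106, 150 and 122 against 19.8, 5.97 and 24.5. The p53 targets Mdm2, Ccng1 and Pmaip1 were lower in ESCs (log2 fold changes −1.35, −1.4 and −1.42), while Trp53inp1 was within 2-fold. Other p53 targets, Zmat3, Sesn2 and Bbc3, were not called (log2 fold changes 0.05, 0.62 and −0.21). Trp53 itself was higher, at 547, 72.3 and 694 in ESCs against 130, 103 and 133 on day 10 (adjusted p = 0.0247), with ESC replicate 2 below the day 10 libraries and a log2 fold change of 2.36 without it (adjusted p = 6.36e-09).

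Metabolic genes had smaller median differences. Of 25 nucleolar genes of ribosome biogenesis 11 were higher, 1 lower and 4 within 2-fold, with a median log2 fold change of 0.64. Without ESC replicate 2, 18 of 25 were higher and the median was 0.87. Of 21 glycolytic genes 7 were higher and 1 lower, and without ESC replicate 2, in which Gapdh was 370 normalized counts against 14209 and 11889, 13 of 22 were higher. Ldhb, the lactate dehydrogenase subunit of oxidative tissues, had the largest difference, at 24.7, 37 and 35.8 on day 10 and 1261, 397 and 1211 in ESCs (log2 fold change 4.83, adjusted p = 1.3e-05), and it had been lowered from 325 in MEFs. Slc2a3, a high-affinity glucose transporter, rose from 141, 109 and 89.5 to 669, 753 and 706. Hk2 was within 2-fold, at 909, 648 and 648 against 798, 574 and 634. In one-carbon metabolism 8 genes were higher and 3 lower of 19. Gldc, of the glycine cleavage system, had 46.9, 20.3 and 16 on day 10 and 158, 298 and 145 in ESCs, while Phgdh, at the entry of serine synthesis, was lower in ESCs (log2 fold change −1.04) and Shmt2 was within 2-fold. No cholesterol gene was higher in ESCs, and 7 of 20 were lower.

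**Figure D2:**
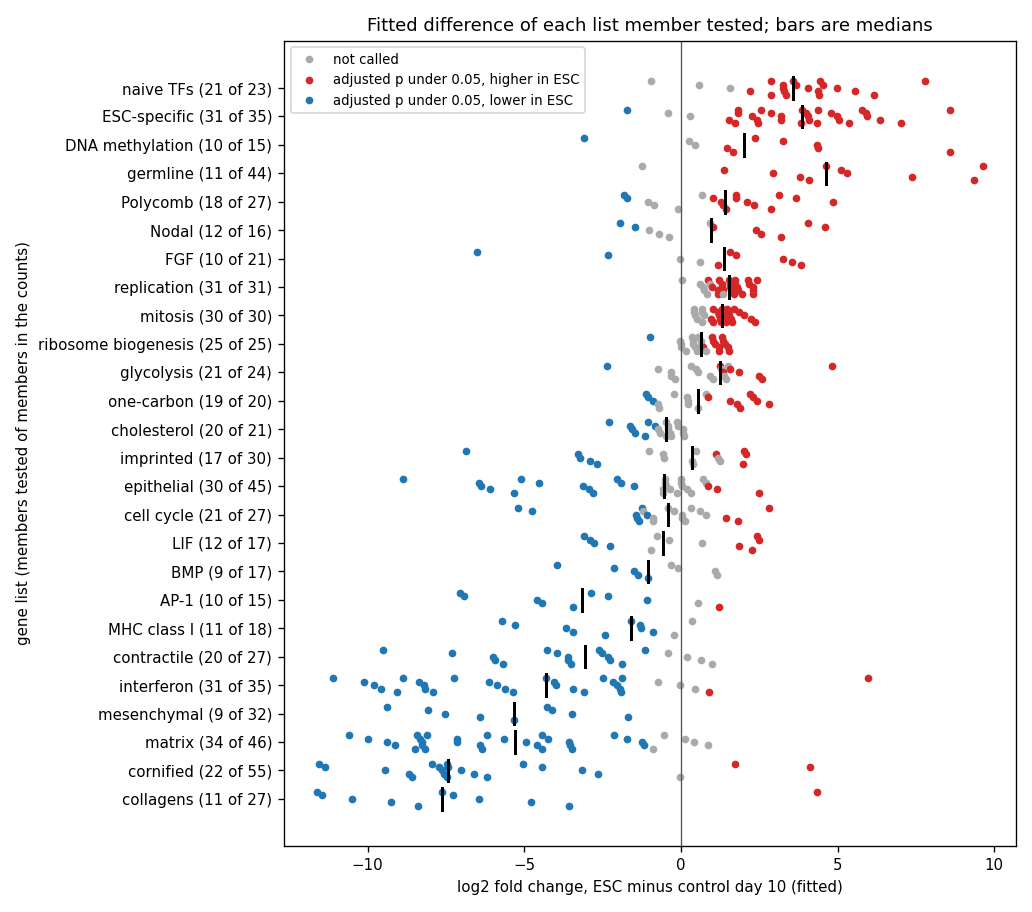
Fitted log2 fold change, ESC minus control day 10, of every tested member of 26 gene lists, with red and blue points for genes called higher and lower in ESCs, grey points for genes not called and black bars at list medians. Medians run from 4.62 in germline genes to −7.62 in collagens, and points beyond about 7 in size mostly belong to genes with no or few reads in 1 group, whose fitted values are no bounds.

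Fibroblast matrix genes were still expressed on day 10. Of 11 collagens tested 10 were lower and 1 higher in ESCs, and the median log2 fold change was −7.62 as fitted and −4.44 with genes undetected in ESCs set to their bound. Col1a2 and Col3a1, chains of fibrillar collagen, had 246, 533 and 566 and 138, 538 and 532 normalized counts on day 10 and no read in any ESC library, at least 112-fold and 101-fold differences. The mean of Col1a2 was 2311 in MEFs, 143 at its lowest on day 6 and 448 on day 10. Day 10 replicate 1 had the lowest level of both. The exception was Col18a1, a basement membrane collagen, at 2.47, 3.58 and 6.6 on day 10 and 102, 101 and 83.6 in ESCs (log2 fold change 4.36, adjusted p = 1.12e-05). Of 34 other matrix genes tested 29 were lower and 0 higher. Sparc, a collagen-binding glycoprotein, had 1033, 2421 and 1772 against 146, 30.7 and 102, and Dcn, a small proteoglycan, 589, 769 and 864 against 1.83, 1.81 and 0, at least 185-fold. Dcn was also above its MEF mean of 60. Fn1 (fibronectin) had already come to the ESC level. It fell from 3183 in MEFs to 232, 345 and 350 on day 10, and ESCs held 285, 421 and 354 (log2 fold change 0.14, 95% interval −0.46 to 0.74).

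Collagens and matrix genes together took 0.855% ± 0.323 of reads on day 10, 0.0978% ± 0.0244 in ESCs and 2.73% ± 0.365 in MEFs. Day 10 replicate 1 had 0.494%, and replicates 2 and 3 had 1.12% and 0.955%. The part of remaining wild-type MEFs in these values was not tested. Of the 11 fibroblast markers all had reads on day 10, with a summed level of 1232 to 2537 normalized counts against 4245 to 5871 in MEFs. Contractile genes were lower in ESCs in 16 of 20 cases and higher in 0. Acta2, smooth muscle actin, had fallen from 20303 in MEFs to 638, 795 and 743 on day 10 and was at 12.8, 16.3 and 7.72 in ESCs (log2 fold change −5.94, adjusted p = 6.18e-07). Vcl and Actn1, linkers of adhesion sites to actin, were not called. Of 32 mesenchymal genes in the counts 9 were tested and 9 lower in ESCs (14 of 16 without ESC replicate 2). Since 7 of the 9 were undetected in ESCs and passed the filter through day 10, this count is a description. Among them were the transcription factors Prrx1 (46.9, 136 and 101 on day 10, no read in ESCs) and Zeb2. Twist1, Snai1 and Snai2 were at 12.2 normalized counts or less in every day 10 library and were not tested.

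Of 10 surface markers tested 2 were higher in ESCs, 6 lower and 2 not called, and 9 of 13 were lower without ESC replicate 2. Cd44, a hyaluronan receptor that is lost late in reprogramming, had 304, 399 and 348 normalized counts on day 10 and 0, 1.81 and 0 in ESCs, at least 87.4-fold lower there. Icam1, which is gained late, had 32.1, 46.6 and 28.3 on day 10 and 51.2, 54.2 and 59.2 in ESCs. The groups did not overlap, but the difference was not called (log2 fold change 0.58, 95% interval −0.14 to 1.29, adjusted p = 0.179). Thy1 was low in both, at 8.64, 15.5 and 15.1 against 1.83, 1.81 and 1.29, and Pecam1 had at most 24.4 in ESCs. Neither of these passed the filter. Ly6a (Sca-1), an interferon-inducible surface protein, was raised from 5.8 in MEFs to 87.7, 183 and 148 on day 10 and had no read in ESCs.

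Of 30 epithelial genes tested, 3 were higher in ESCs, 13 lower and 14 not called, 2 of them within 2-fold, with a median log2 fold change of −0.53. Cdh1, which encodes E-cadherin, had 170, 160 and 156 normalized counts on day 10 and 179, 204 and 140 in ESCs (log2 fold change 0.05, 95% interval −0.49 to 0.6). It had reached 151 by day 6 from 0.864 in MEFs. Epcam was also raised by day 6 and lay somewhat lower on day 10 than in ESCs, at 66.7, 68.1 and 82.9 against 140, 150 and 121 (log2 fold change 0.86, adjusted p = 0.0194). The splicing regulator Esrp1, the protease inhibitor Spint2 and the tight junction gene Cldn6 were not called. By contrast Krt8, a keratin of simple epithelia, had 517, 534 and 620 on day 10 and 15.5, 0 and 0 in ESCs, and Dsp, the plaque protein of desmosomes, 304, 362 and 298 against 0.913, 7.23 and 5.14 (log2 fold change −6.38, adjusted p = 1.56e-06). Dsc2, Pkp1 and Mal2 were likewise lower in ESCs, at least 29.6-fold, 17-fold and 13.8-fold. Grhl2, a transcription factor of epithelia, was one of the 3 higher in ESCs (log2 fold change 2.49).

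Genes of stratified and cornified epithelium were mostly undetected in ESCs, in 44 of 55 cases, while 15 were undetected on day 10. Of the 55, 22 were tested, of which 19 were lower and 2 higher in ESCs. Krt14, a keratin of basal keratinocytes, had 330, 413 and 400 normalized counts on day 10, none in ESCs and 0.288 in MEFs, and Krt6a, of activated keratinocytes, 369, 532 and 412 with none in either. Day 10 levels were at least 95.2-fold and 109-fold those of ESCs. Krtdap, a secreted keratinocyte protein, had 925, 1010 and 925 against 0.913, 7.23 and 5.14, and Sprr2b, of the cornified envelope, 620, 265 and 251 with replicate 1 highest. Krt14 had been gained by day 3, when its mean was 262, whereas the mean of Krtdap was 158 then and 953 a week later. Of the 10 keratinocyte markers, 6 were detected on day 10 with a sum of 935 to 1260 normalized counts, against 5.43 to 25.1 in MEFs and 0 to 7.23 in ESCs. The 2 genes of the list that were higher in ESCs were Krt42 and Gsta4, a glutathione transferase that is not restricted to skin, at 159, 162 and 196 against 3815, 2070 and 3471. The list as a whole, Gsta4 included, took 0.178% of reads in ESCs and 0.431% on day 10. In ESCs it summed to 2182 to 3974 normalized counts, nearly all from Gsta4, so the ESC share does not describe the other members.

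**Figure D3:**
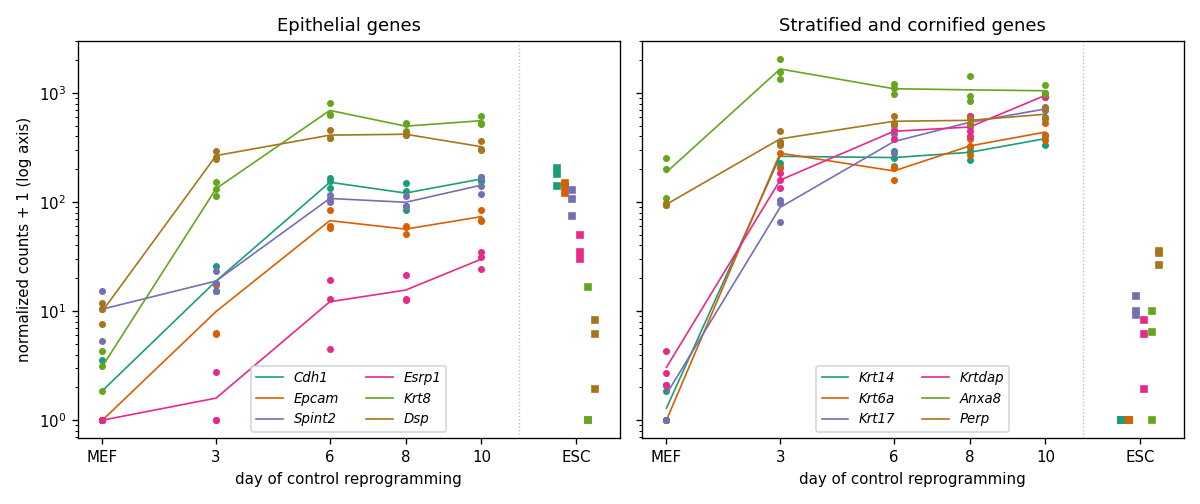
Normalized counts plus 1 (log axis) of 12 epithelial genes in single libraries of MEFs, control days 3 to 10 (points, lines through means) and ESCs (squares, in the order of the legend). Cdh1 was within 2-fold of its ESC level on day 10, Spint2 and Esrp1 were not called and Epcam was 0.86 log2 units below it, whereas Krt8, Dsp and the 6 genes on the right ended far above them.

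Interferon-stimulated genes were mostly higher on day 10. Of 31 tested, 26 were lower in ESCs, 2 higher and 3 not called, with a median log2 fold change of −4.31 (−3.36 with genes undetected in ESCs set to their bound). Usp18, a negative regulator of the response, had 241, 363 and 339 normalized counts on day 10, none in ESCs and 5.41 in MEFs, at least 78.5-fold. Ifit3, Oasl2 and Rsad2, effectors against viral RNA and replication, had none in ESCs either, with bounds of 39.4-fold, 32.2-fold and 19.2-fold. Usp18 was at 0 on day 3, 6.92 on day 6 and 107 on day 8. Ifitm1 went the other way, at 70.4, 43 and 74.4 on day 10 and 3647, 5000 and 3657 in ESCs (log2 fold change 5.98, adjusted p = 6.18e-07), and its neighbour Ifitm2 was modestly higher, while Ifitm3 was lower in ESCs (log2 fold change −1.9). Trim25 was within 2-fold. Ifitm genes are known to be expressed in ESCs without interferon. The 35 genes of the list took 0.483% of reads on day 10 and 0.332% in ESCs. In ESCs the list summed to 5889 to 6568 normalized counts, mostly from Ifitm1, and 18 of the 35 genes were undetected.

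MHC class I genes were lower in ESCs as well. B2m, the light chain, had 4636, 4989 and 4371 normalized counts on day 10 and 119, 135 and 114 in ESCs (log2 fold change −5.3, adjusted p = 5.7e-07), and MEFs had 2617. The heavy chains H2-D1 and H2-K1 were at 201, 245 and 184 and at 131, 183 and 170 on day 10, and at most 15.5 in ESCs. Of 11 genes tested 9 were lower and 0 higher, and the chaperone Canx, which serves all secreted proteins, was within 2-fold. Reads of heavy chain genes can be shared between these paralogues, so their split is uncertain. Of 10 genes tested from a list of AP-1 and other immediate early factors, 8 were lower in ESCs and 1, Myc, was higher. Fos had 50.6, 66.9 and 52.8 against 6.39, 5.42 and 3.86, and Fosl2 67.9, 84.8 and 59.4 against 0.913, 0 and 0.

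**Figure D4:**
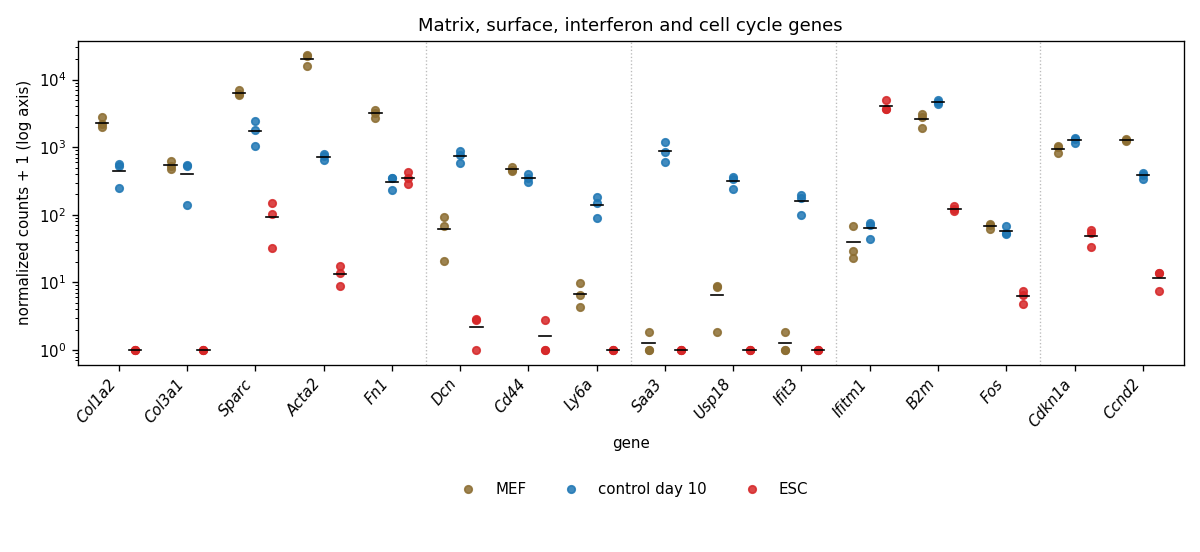
Normalized counts plus 1 (log axis) of 16 matrix, surface, interferon, MHC class I, AP-1 and cell cycle genes in single libraries of MEFs, control day 10 and ESCs, with black bars at group means. Most genes lay well above ESC levels on day 10, Fn1 coincided in the 2 groups, and Ifitm1 was higher in ESCs.

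Imprinted genes and Xist were read because ESC lines can lose imprints and X inactivation is reset in pluripotent cells. Of 17 imprinted genes tested 4 were higher and 5 lower in ESCs, where 18.5% and 23.7% of all genes tested were. Without ESC replicate 2, 7 were higher and 7 lower. Igf2, a fetal growth factor, fell from 1781 in MEFs to 332, 479 and 362 on day 10 and was 0.913, 1.81 and 7.72 in ESCs (log2 fold change −6.85, adjusted p = 1.93e-06), and H19, the non-coding RNA of the same locus, had 25.9, 32.3 and 36.7 against 5.48, 3.61 and 0. Meg3, whose silencing marks poor pluripotent lines, was present in all and higher in ESCs, at 71.6, 104 and 98 on day 10 and 136, 336 and 154 (adjusted p = 0.0238). Peg3, Mest and Impact were about 2 log2 units higher in ESCs (2.07, 2.01 and 1.97), while Grb10, Gnas and Plagl1 were lower. Dlk1 had too few reads to be tested. Xist had 65.4, 165 and 111 normalized counts on day 10, 21.5 in MEFs and 2.74, 0 and 3.86 in ESCs, at least 28.4-fold lower. Ddx3y, on the Y chromosome, was at 147, 92 and 163 on day 10 and 104, 164 and 90 in ESCs. Reads of Ddx3y were thus present in each of these 6 libraries, and the makeup of the cultures by sex was not tested.

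Among the 10 genes most increased in ESCs with at least 50 normalized counts were Spink3, a protease inhibitor (166, 511 and 168, none on day 10), Nphs1, which encodes nephrin (67.6, 63.2 and 65.6, none on day 10), and the unnamed loci 2410003L11Rik, Gm10324 and C330021F23Rik. The last 3 also had no read on day 10. Among the 10 most decreased were Saa3, an acute-phase protein of inflamed tissue, at 593, 851 and 1195 on day 10 and none in ESCs, Ccl2, a chemokine, at 957, 1860 and 1999 against 0, 3.61 and 0, Chi3l1, at 449, 171 and 109 against none, and Ifi44, an interferon-stimulated gene. Saa3 was 0.288 in MEFs and 25.7 on day 6. Lyz2 was also among them, at 530, 2412 and 2257 on day 10 and 0, 3.61 and 0 in ESCs.

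Lyz2 (lysozyme) is a marker of macrophages and was 1036 in MEFs. The 6 blood markers in the counts summed to 595 to 2552 normalized counts on day 10, 557 to 2045 in MEFs and 46.3 to 63.9 in ESCs, on day 10 mostly from Lyz2, and Ptprc, the pan-leukocyte marker, had 1.23, 16.7 and 26.4 on day 10. Day 10 replicate 1, with the least Lyz2 and Ptprc, also had the least Col3a1 and matrix. The contribution of blood cells to the interferon, MHC class I and chemokine values was not tested. The 12 neural markers summed to 259 to 334 normalized counts in MEFs, 2736 to 3106 on day 10 and 1121 to 1696 in ESCs. In both main groups most came from Stmn2, at 2730, 2464 and 2650 on day 10 and 1575, 1031 and 958 in ESCs. Of the 4 tested, Tubb3, Map2 and Stmn2 were lower in ESCs (log2 fold changes −1.30, −3.34 and −1.18). Neurod1 was higher there (5.15 as fitted, no bound). Endoderm and endothelial markers had summed levels of at most 26.3 and 20.7 on day 10.

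The genes over 4-fold apart were then placed by the change between MEFs and day 10, with a cut of 2-fold on log2(mean normalized count + 1). In the comparison of day 10 with MEFs itself, 1773 of 9195 genes (19.3%) were higher on day 10 and 1886 (20.5%) lower. This comparison shares the day 10 libraries with the main one, so the placing is a description. Of the 456 genes higher in ESCs, 138 (30.3%) had moved towards ESCs by day 10, 236 (51.8%) were near the MEF level and 82 (18%) lay below it. Many placings rest on few reads. Of the 138 genes 95 were undetected in MEFs, and of the 236 genes 51 were undetected on day 10 and 50 in MEFs. The numbers by other settings follow. With a 4-fold cut the genes that had moved, were near the MEF level and lay below it were 65, 360 and 31, and a pseudocount of 5 left 74 that had moved. Those that had moved had median levels of 0.576 normalized counts in MEFs, 9.45 on day 10 and 108 in ESCs, and among the most abundant were Dppa5a, Gsta4, Zfp42, Fabp3, Tdgf1 and Hat1. Genes below the MEF level included Ldhb, Sgk1, a kinase induced by serum and glucocorticoids (25.9, 20.3 and 33.9 against 369, 226 and 381), Fxyd6 and Klf2. Among those near it were Ifitm1, Mif, Hmgb2 and Snhg3. Rps29 and Gm6402 stood there too, with ESC replicate 2 at 36931 and 12679, far above the other ESC libraries.

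Of the 1071 genes lower in ESCs, 413 (38.6%) were higher on day 10 than in MEFs, 444 (41.5%) were near the MEF level, and 214 (20%) had been partly lowered (698 near and 87 lowered with a 4-fold cut). The genes that had moved away from ESCs had medians of 5.43 normalized counts in MEFs, 50.9 on day 10 and 1.77 in ESCs, and 222 of them were undetected in ESCs. Among the most abundant were the chemokines Ccl7 and Ccl2, and Ly6g6c, Anxa8, Slurp1 and Krtdap. Ly6g6c had 1032, 1703 and 2342 on day 10 and at most 1.81 in ESCs, after 2.72 in MEFs. Genes near their MEF level included B2m, Nupr1, a stress-induced chromatin protein (2176, 2335 and 3094 against 32.9, 32.5 and 29.6), Tagln2, Esd and S100a10. Partly lowered genes included Acta2, Anxa1, Anxa2, S100a6, Sparc and Timp1. Their median was 244 in MEFs, 48.5 on day 10 and 3.23 in ESCs. Without ESC replicate 2, genes over 4-fold apart were split as 150, 283 and 101 among those higher and 585, 584 and 292 among those lower.

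**Figure D5:**
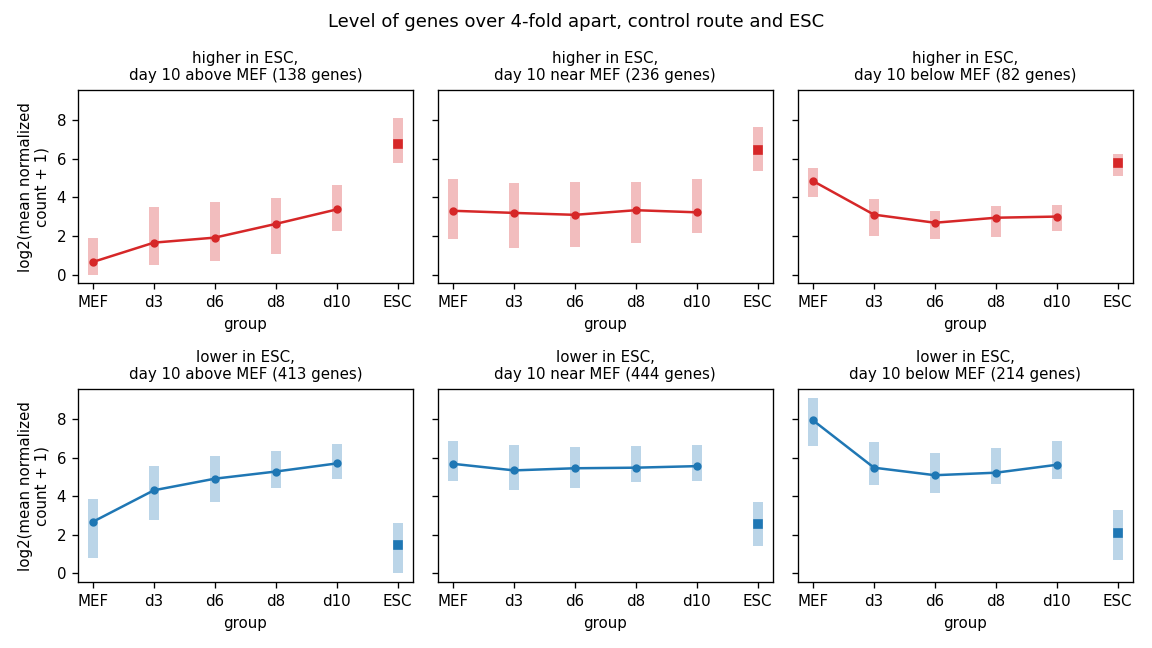
Log2(mean normalized count + 1) of genes over 4-fold apart between ESCs and control day 10, in 6 panels by direction and by the change from MEFs to day 10, which the panels are chosen on. Lines join medians over genes in MEFs and control days 3, 6, 8 and 10, squares show ESCs and bars span the quartiles. Median levels of the 413 genes at the lower left climbed on every sampled day from 2.68 in MEFs to 5.70 on day 10 and were 1.47 in ESCs.

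In the +Sm3CA day 10 cells, levels of the same genes are given for comparison only, because they share the ESC libraries. Dppa5a had a mean of 968 ± 556 (SD, n = 3) in +Sm3CA and 381 ± 190 on control day 10, against 32823 in ESCs, and Zfp42 238 ± 62.6 and 117 ± 42.5 against 2812. Nanog was 18.5 ± 8.82 and 16.6 ± 5.74. The share of reads in ESC-specific genes, Cd9 included, was 0.319% ± 0.0598 and 0.25% ± 0.0207. That in interferon genes was 0.139% ± 0.0163 and 0.483% ± 0.0955, and that in collagens and matrix 0.393% ± 0.00956 and 0.855% ± 0.323. Krtdap was 942 ± 98.6 and 953 ± 48.8. No test was run on these values.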

How the data were processed

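RNA was measured by STRT RNA-seq in 84 wells. The values the authors deposited were raw read counts per gene, not counts of molecular tags. Per the submitters' processing notes reads were aligned with Bowtie 0.12.9 to mm10 and processed with DESeq2 1.6.3. Technical wells of 1 biological replicate were summed, as the study did, into 30 libraries in 10 groups, and 0 columns were left unmapped. No pair of libraries held identical counts.

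ESCs were compared with control day 10 with edgeR 4.0.16 in R 4.3.3 (TMM, filterByExpr, a quasi-likelihood test and a Benjamini-Hochberg threshold of 0.05), fitted on these 6 libraries, and day 10 with MEFs in the same way. Normalized counts were divided by DESeq2 1.42.0 size factors over all 30 libraries. A gene was undetected in a group with at most 3 reads in each library, and folds against such a group are bounds computed with 3 reads in each library. Shares of reads were compared with an exact permutation test. Intervals are 95%. Levels are not divided by gene length and are compared within a gene only. Promoters came from RefSeq on GRCm38.p6.

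The gene lists and groups of genes were chosen with earlier results of these data known. Lists of primed epiblast genes (4 tested, 2 higher and 0 lower in ESCs) and of Hox genes are not described above. Of the Hox genes 2 were tested, and both were lower and undetected in ESCs. Genes named were chosen by a rule, and not every gene it chose was named. The rule took the MKOS factors. From each direction it took the 10 most changed genes with a mean of at least 50 normalized counts in the higher group. From each list it took up to 5 called members in each direction and up to 4 not called. It also took the 6 most abundant genes per pattern, and markers of reprogramming stage, imprinting and Xist. Others were chosen after their values were seen, namely Nanog, Nr5a2, Sall4, Tfcp2l1, Zscan10, Dppa2, L1td1, Lin28a, Dnmt1, Ezh2, Suz12, Eed, Dazl, Rhox6, Lefty2, Spred1, Zmat3, Sesn2, Bbc3, Esrp1, Ifitm3, Twist1, Snai1, Snai2 and Ptprc. Promoter sequences of Dppa5a and Krt6a were not used here. On simulated counts for ESCs against control day 10, with 200 genes changed 4-fold, edgeR called 163 of them and 6 of 8035 unchanged genes. The simulation gave every gene the same dispersion and had no library that stood apart, so it does not measure the error rate in the real counts. The alternatives were other normalization, filters, the DESeq2 Wald test, thresholds and pseudocounts, single wells, a replicate block and leaving out each library. Figures were drawn with matplotlib 3.10.9.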

Additional observations from a re-analysis of the deposited data

How the results depend on the processing

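Of 4836 refitted values of the named genes 4618 kept direction and side of the threshold, 218 changed side and 0 reversed. Of 540 list medians 479 stayed, 58 moved and 3 reversed, namely cell cycle regulators (0.07 without ESC replicate 1, −0.68 to 0.07 over single libraries left out) and imprinted genes (−0.10 with at least 10 reads in 3 libraries and −0.05 without ESC replicate 2, −0.05 to 0.36 over single libraries left out). A fit over all 30 libraries called 5689 genes, 2363 higher and 3326 lower in ESCs, with 1883 over 4-fold lower and 1917 within 2-fold. An adjusted p under 0.01 left 2222, with 906 higher. Genes over 4-fold higher and lower were 696 and 1704 by DESeq2's Wald test and 836 and 1925 without a filter. Leaving out 1 library gave 472 to 1698 genes within 2-fold. With 1 well per library 2126 genes differed between day 10 and MEFs, 995 higher and 1131 lower. A 4-fold cut between day 10 and MEFs gave 65, 360 and 31 genes above, near and below MEFs among those higher in ESCs, and 698 near and 87 below among those lower, and a pseudocount of 5 gave 74 above among those higher. Without the 10 most abundant genes shares of reads were 0.306% for ESC-specific genes on day 10, 0.385% for naive factors in ESCs, 0.528% for cornified genes on day 10, 0.397% and 0.591% for interferon genes in ESCs and on day 10, 0.224% for replication on day 10, 0.579% and 0.343% for mitosis and 2.94% and 2.63% for the mitochondrial genome. The causes of these moves were not tested.

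Replicate numbers of the groups did not pair, with correlations of deviations of 0.0255, 0.0649 and −0.0329 for equal numbers. A fit with the replicate number as a block called 3270 genes, 1404 higher and 1866 lower. Groups and read shares without ESC replicate 2 were chosen after seeing the data. With 3 libraries a group the exact test cannot go below 0.1, and genes with few reads in both groups were not tested.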
